A study of Mus musculus with 17 samples.

Results

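The genes described here are a set of 40 genes of the cell cycle and of DNA replication, chosen by name with earlier results of these data known. They were looked up by symbol in a table of normalized read counts from sorted mouse brain myeloid cells. Of the 40, 39 were among the 13501 genes of the table, and H2afz, which codes for a histone variant, was not analysed here. All 39 passed the filter on low values (10 or more in at least 3 libraries), as did 12074 genes in all.

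The study replaced microglia, the resident macrophages of the brain, by transplanted bone marrow cells in 5xFAD mice, which carry human transgenes that give brain amyloid, and asked about Trem2, a lipid-sensing receptor of these cells. KO-donor transplants (4 libraries) were circulation-derived myeloid cells in brains of Trem2-knockout 5xFAD hosts, from Trem2-knockout donors, after bone marrow transplantation with PLX5622, an inhibitor of the CSF1 receptor that depletes microglia. WT-donor transplants (4 libraries) had the same knockout 5xFAD hosts and the same treatment, with Trem2 wild-type donors. KO 5xFAD microglia (3 libraries) came from untreated Trem2-knockout 5xFAD mice, WT 5xFAD microglia (3 libraries) from untreated 5xFAD mice with Trem2, and normal microglia (3 libraries) from untreated wild-type mice without 5xFAD. All cells were sorted as living CD45+CD11b+ cells, a gate that blood-derived myeloid cells share with microglia, and host microglia that outlived the depletion would fall in it too. Nothing in the labels ties a replicate to an animal of its own, and p-values cover only the spread between these libraries.

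Dividing cells pass through a DNA synthesis phase, in which licensed origins are opened by the MCM helicase and copied by forks that need PCNA and a supply of deoxynucleotides, and then through mitosis, driven by Cdk1 with cyclins A and B, mitotic kinases, motor proteins and condensins. Transcripts of mitotic genes are nearly absent from resting cells, while MCM subunits, PCNA and ribonucleotide reductase are also present at some level in cells that do not divide. Adult microglia renew slowly and proliferate around amyloid, and Trem2 is known to favour their proliferation and survival. Precursors of granulocytes and monocytes in bone marrow divide rapidly.

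The libraries held 16044078 to 30606394 reads, with a median of 19254498. Trem2 was 3962 to 5211 normalized counts in KO-donor transplants and 37066 to 53908 in WT-donor transplants. In microglia it was 4367 to 5965 in KO 5xFAD libraries, 49347 to 53077 in WT 5xFAD libraries and 31205 to 37459 in normal ones, so each library was on the side of its Trem2 label. The sort markers Ptprc (CD45) and Itgam (CD11b) were present in all 17 libraries. Apoe took 0.5% to 16.23% of the reads of a library, which lowers the share left for other genes where it is high.

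The KO 5xFAD microglia were not alike, and this touches most results below. Libraries S25 and S27 were both above the other 15 libraries in 30 of the 39 members, against 10.2% of all tested genes, and both above the third KO library, S26, in 37, against 44.8% of all genes. The lower of S25 and S27 was 2.68 times S26 at the median over members, with a range of 0.727 to 6.54. The excess covered all 4 mitotic cyclins and Cdk1, all 8 kinases and checkpoint genes and all 7 spindle genes, but 3 of 6 MCM subunits and 1 of 3 licensing genes. S26 lay within the range of WT 5xFAD microglia for 14 members, below it for 21 and above it for 4. S25 and S27 were also closer to each other than most pairs of a group (chi-square per degree of freedom 9.86, against 136.13 and 136.49 with S26). The pairs S22 and S23 (6.21) and S30 and S31 (4.98) were close as well, and the other pairs within groups lay at 13.57 or above. Among WT-donor transplants, S29 was the lowest of its group in 29 members, against 24.3% of all genes, and the lowest of all 17 libraries in 12, against 5.38%. These patterns were noticed in the data and are a description of the libraries.

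Transcripts of other cells moved with this split. The summed level of 7 granulocyte precursor markers (Elane, Mpo, Prtn3, Ctsg, Fcnb, Ms4a3 and Cebpe) was 11052 in S25 and 11922 in S27, against 611 in S26. It was 1044, 826, 45.8 and 316 in KO-donor transplants, 3562, 36.4, 1773 and 1964 in WT-donor transplants, 85.9 to 273 in WT 5xFAD microglia and 50.4 to 410.1 in normal microglia. S29 had Elane, Mpo, Prtn3, Ctsg and Ms4a3 at 0, and S34, a KO-donor library, had Elane and Ms4a3 at 0. The sum of 10 neutrophil markers was 117270.3 in S25, 126492 in S27 and 54814 in S26, and no other library passed 36065. Monocyte markers summed to 19134 in S25, 19571 in S27 and 8441 in S26, against 2786 to 7006 elsewhere. Microglia markers, in contrast, summed to 762629 in S25 and 770536 in S27, against 991502 in S26. The part of these other cells in the members' levels was not tested, and in bulk libraries more cells of a type cannot be told apart from more RNA per cell.

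**Figure D1:**
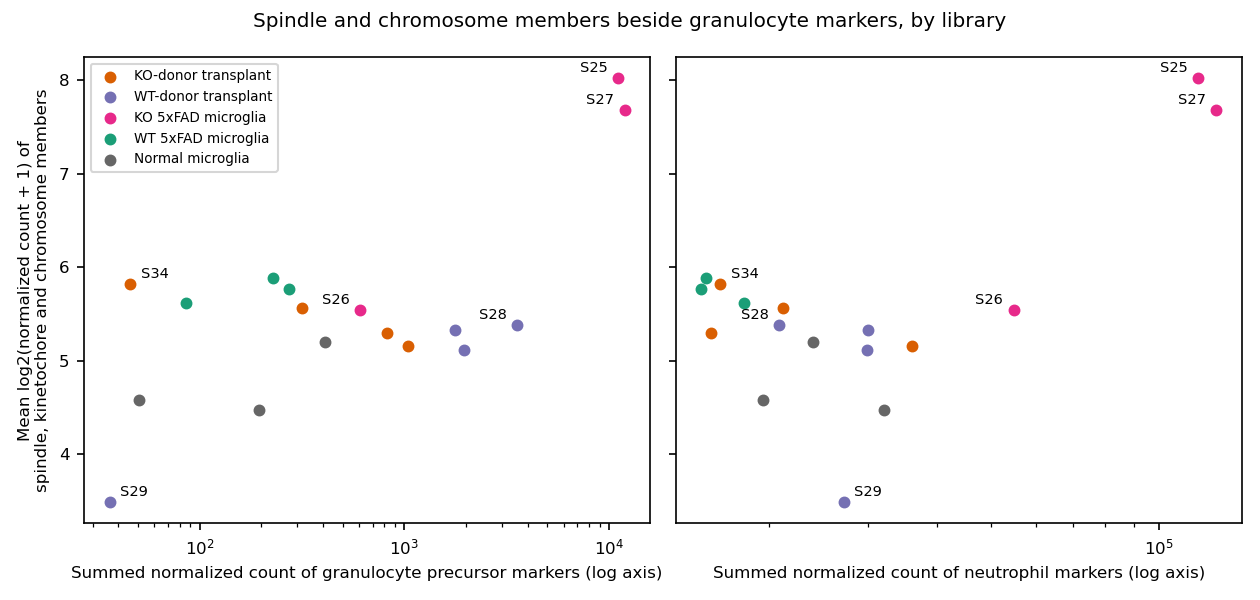
Mean log2(normalized count + 1) of the 7 spindle, kinetochore and chromosome members (vertical axis) against the summed normalized count of granulocyte precursor markers (left) and of neutrophil markers (right) on log axes, 1 point per library, coloured by group. S25 and S27 stand at the top right of both panels and S29 at the bottom. Within WT-donor transplants, S28 has the highest precursor sum (3562) and mean (5.38), and S29 the lowest of both (36.4 and 3.49). Within KO-donor transplants, S34 has the lowest precursor sum (45.8) and the highest mean (5.82). A link was not tested.

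Per kilobase of exon, the members differed widely. In normal microglia Mcm3 averaged 514 normalized counts per kb, Stmn1 341 and Pcna 279, while Cenpe averaged 1.03, Cenpf 1.28 and Mki67 2.13. The members of the highest level thus belonged to helicase, clamp and tubulin binding, and those of the lowest level to the kinetochore and spindle. The KO 5xFAD microglia had the highest mean of the 5 groups for 30 of the 39 members, KO-donor transplants for 5, WT-donor transplants for 3, WT 5xFAD microglia for 1 and normal microglia for none. The lowest mean was in normal microglia for 26 members, in each of the transplant groups for 5, in KO 5xFAD microglia for 2 and in WT 5xFAD microglia for 1. For most members the KO 5xFAD mean rests on S25 and S27 and carries an SD as wide as shown in the plot of single members.

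**Figure D2:**
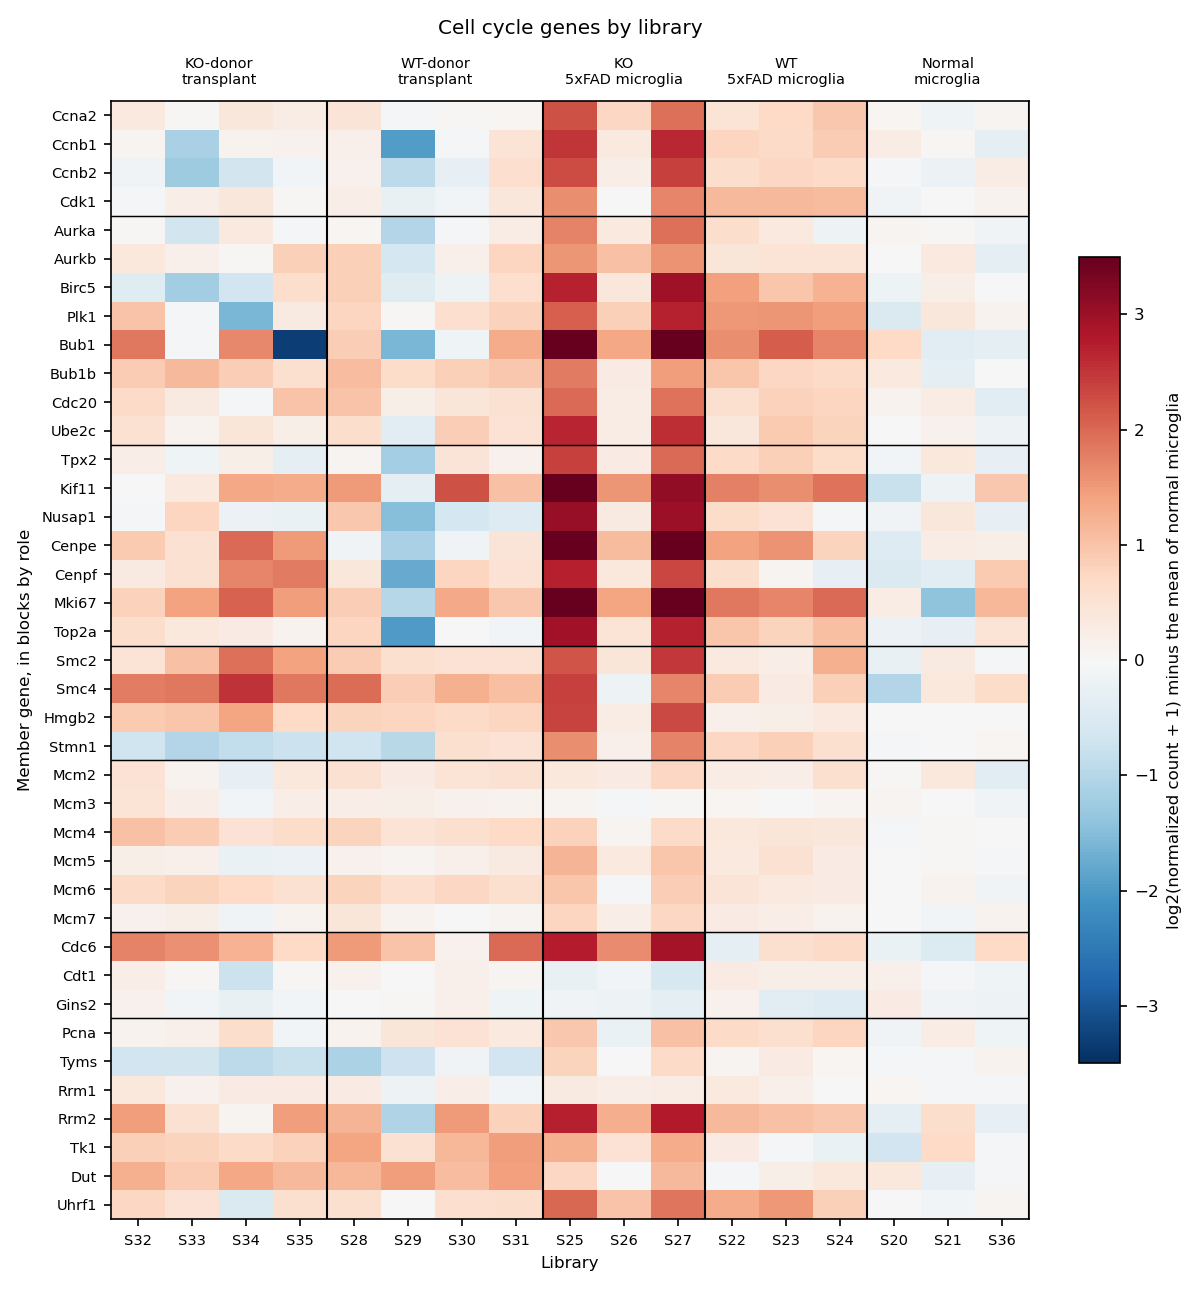
Each row is a member and each column a library; the colour gives log2(normalized count + 1) minus the mean of the 3 normal libraries, red for higher and blue for lower, with rows in blocks by role. S25 and S27 form red columns from Ccna2 to Hmgb2, the MCM block varies little, and Dut and Smc4 are red in the transplant columns while Tyms is blue.

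In microglia of 5xFAD mice, the mean levels of most division genes lay above those with Trem2 when Trem2 was knocked out, and the excess lay in S25 and S27. Of the 39 members, 2 were called higher in KO than in WT 5xFAD microglia (adjusted p under 0.05), against 2.50% of all tested genes, and 0 lower, against 2.59%. These were Cdc6 and Hmgb2. The median log2 difference of the members was 0.81, against -0.01 over all tested genes, and 35 were above 0. All 3 KO libraries exceeded all 3 WT libraries for 4 members (Aurkb, Rrm2, Tk1 and Cdc6), against 10.9% of all genes, and all 3 were lower for 1 (Cdt1), against 11.3%. Leaving out S26 gave 28 called members, of which 27 were higher, where 13.3% of all genes were called higher. Leaving out S25 and S27 gave 0 called members and a median of -0.21, with the remaining KO library assumed to vary like the other groups.

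Set against normal microglia, KO 5xFAD microglia were higher in 15 members, against 2.70% of all tested genes, and lower in 0, against 1.21%. The median log2 difference was 1.38, against 0.03 over all genes. The KO libraries did not overlap the normal libraries for 22 members, all higher, where 11.7% of all genes were higher and 8.46% lower without overlap. Called were Ccna2, Aurkb, Bub1b, Cdc20, Ube2c, Kif11, Cenpe, Mki67, Smc2, Hmgb2, Mcm5, Mcm7, Cdc6, Rrm2 and Uhrf1. Without S26 the count was 34, where 18.3% of all genes were called higher, and without S25 and S27 it was 0, with a median of 0.29. It was also 0 without S25 alone, without S27 alone and with only these groups in the fit, 1 without S20 or S21 and 5 without S36. For these last fits no share of all genes is given, so their counts describe the settings, not the members.

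**Figure D3:**
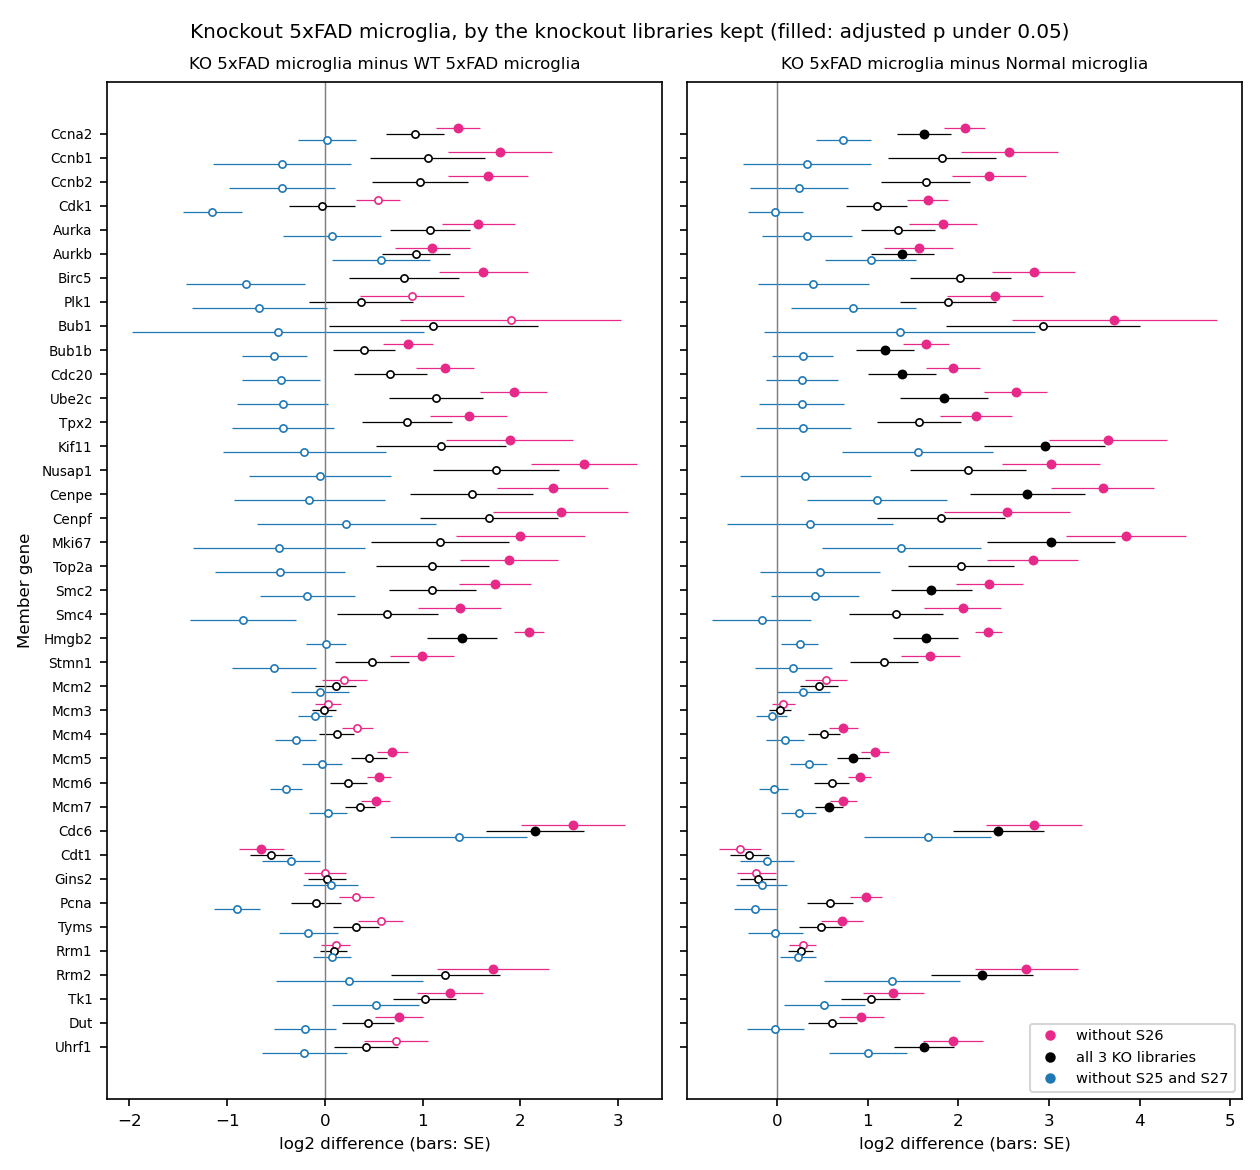
Log2 differences with their standard errors for each member between KO and WT 5xFAD microglia (left) and between KO 5xFAD and normal microglia (right), with all 3 KO libraries in black, without S26 in pink and without S25 and S27 in blue; filled points passed an adjusted p of 0.05. The pink points lie right of the blue ones for most mitotic members, the MCM subunits lie nearer to 0 than the spindle genes, and no blue point is filled.

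In microglia with Trem2, members also lay mostly higher with 5xFAD than without. WT 5xFAD microglia had 38 of the 39 members above normal microglia, with a median log2 difference of 0.66, against 0 over all genes. One member, Uhrf1, was called higher, where 2.83% of all genes were higher and 0.952% lower. Leaving out any 1 of the 6 libraries ended this call. The libraries did not overlap for 26 members, all higher in WT 5xFAD microglia, where 16.7% of all genes were higher and 16.9% lower without overlap. With only these 2 groups in the fit, 14 members were called, all higher, where 8.16% of all genes were called higher. They were Cdk1, Ccna2, Birc5, Plk1, Bub1, Kif11, Top2a, Stmn1, Mcm4, Mcm5, Mcm6, Pcna, Rrm2 and Uhrf1. The granulocyte precursor sum of these groups overlapped (85.9 to 273 in WT 5xFAD and 50.4 to 410.1 in normal microglia). Oligodendrocyte precursor markers summed to 268 to 295 in WT 5xFAD and 30.1 to 79.3 in normal microglia. This difference lay in Cspg4, at 229 to 240 in WT 5xFAD and 6.66 to 31.7 in normal microglia. The other precursor markers, Pdgfra, Olig1 and Olig2, overlapped between these groups. Oligodendrocyte markers summed to 5884 to 7752 in WT 5xFAD and 5409 to 5603 in normal microglia. Microglia markers summed to 894247 to 942017 in WT 5xFAD and 1094882 to 1167136 in normal microglia. Monocyte, neutrophil, and T and NK cell markers were also lower in WT 5xFAD than in normal microglia, and none of these 6 sums overlapped between the groups. Their part in these members was not tested. The comparisons of KO and of WT 5xFAD microglia share the normal libraries.

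Transplanted cells with and without Trem2 were not called different in any member. Of the 39, 0 were higher and 0 lower in KO-donor than in WT-donor transplants, against 2.99% and 3.75% of all tested genes. At an unadjusted p under 0.05 there was 1 member, against 26.9% of all genes, and edgeR and DESeq2 on the recovered reads called 0. The median log2 difference was 0.01, against -0.05 over all genes. Without overlap, 1 member (Cenpe) was higher, against 5.96% of all genes, and 0 were lower, against 7.74%. Among well expressed members the limits were narrow, as for Mcm3, with a log2 difference of 0.02 and an SE of 0.11, and among the spindle genes they were wide, as for Mki67, with 0.90 and an SE of 0.61.

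Transplanted cells had lower levels of mitotic genes than KO 5xFAD microglia, mainly against S25 and S27. KO-donor transplants were lower than KO 5xFAD microglia in 19 members, against 13.7% of all tested genes, and higher in 0, against 11.7%. The median log2 difference was -1.02, against -0.02 over all genes. Without overlap, 11 members were lower, against 15.6% of all genes, and 0 higher, against 12.3%. Without S25 and S27 the count turned to 5 higher (Dut, Hmgb2, Mcm4, Mcm6 and Smc4), where 8.59% of all genes were called higher, and 0 lower. Without S25 or without S27 alone it was 8. T and NK cell markers summed to 1842 to 4409.8 in KO-donor transplants, against 628 to 1592 in KO 5xFAD microglia, without overlap. Lower without overlap were neutrophil markers (15729.5 to 36065, against 54814 to 126492) and monocyte markers (3923 to 6176, against 8441 to 19571). So were microglia markers (544909 to 693118, against 762629 to 991502), and B cell, erythroid, oligodendrocyte precursor, astrocyte and endothelial markers. The part of these sums in the members was not tested.

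WT-donor transplants were also set against KO 5xFAD microglia, which have the Trem2 genotype of their hosts, and this comparison shares those 3 libraries with the previous one. They were lower in 25 members, against 17.8% of all tested genes, and higher in 1 (Dut), against 17.3%, with a median log2 difference of -1.13, against -0.01. Without overlap, 10 members were lower, against 15.8% of all genes, and 2 (Mcm3 and Cdt1) were higher, against 15.5%. Without S25 and S27 there were 2 members higher (Dut and Mcm6), where 9.57% of all genes were called higher, and 0 lower. Without S29 the count was 16, without S25 it was 8 and without S27 it was 12. The shares of all genes called in these 3 fits are not given, so the 3 counts are not read as results about the members. Neutrophil markers summed to 20791 to 30072 in WT-donor transplants, against 54814 to 126492 in KO 5xFAD microglia. Monocyte markers summed to 3698 to 7006, against 8441 to 19571, and microglia markers to 569077 to 605260, against 762629 to 991502. These sums, and those of B cell, astrocyte and endothelial markers, did not overlap, and their part was not tested.

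Against WT 5xFAD microglia, WT-donor transplants were called different in few members, though most mitotic members lay lower. Dut and Tk1 were higher and Cdk1 and Tyms were lower, 2 members each, against 13.6% of all tested genes higher and 14.6% lower. The median log2 difference was -0.29, against -0.03 over all genes. By role it was -0.92 for the cyclins and Cdk1, -0.84 for the spindle genes and -0.37 for the kinases and checkpoint genes. For the fork genes it was -0.32, for the MCM subunits 0.13, for the origin genes 0.24 and for the condensin, chromatin and tubulin genes 0.25. No cyclin or spindle member had a difference above 0, nor had Cdk1. Without overlap, 6 members were higher (Dut, Tk1, Hmgb2, Mcm3, Mcm4 and Mcm6), against 19.9% of all genes, and 15 were lower, against 21.2%. Here the groups differ in cell origin, host Trem2 and treatment at once, and these cannot be told apart. Without S23 the count of called members was 2, with no share of all genes given for that fit, so it describes the setting only. T and NK cell markers summed to 371 to 3115 in WT-donor transplants, against 168 to 306 in WT 5xFAD microglia, without overlap. Also higher without overlap were neutrophil markers (20791 to 30072, against 15098 to 17984), monocyte markers (3698 to 7006, against 2786 to 2970.5) and neuron markers. Lower without overlap were microglia markers (569077 to 605260, against 894247 to 942017) and B cell, astrocyte, endothelial and sort markers. The part of these sums in the members was not tested.

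The change from microglia to transplanted cells was also compared between the genotypes. As that difference of differences, 0 members were higher and 0 lower, against 0.870% and 1.95% of all tested genes, with a median of -0.57, against 0 over all genes. At an unadjusted p under 0.05 there were 7 members, against 18.3% of all genes, and DESeq2 called 4 (Tk1, Cdc6, Hmgb2 and Stmn1) and edgeR 0. Without S26 the count was 14, and without S29 it was 1 (Tk1). The shares of all genes called by DESeq2 and in these fits are not given, so these counts are not read as results about the members.

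**Figure D4:**
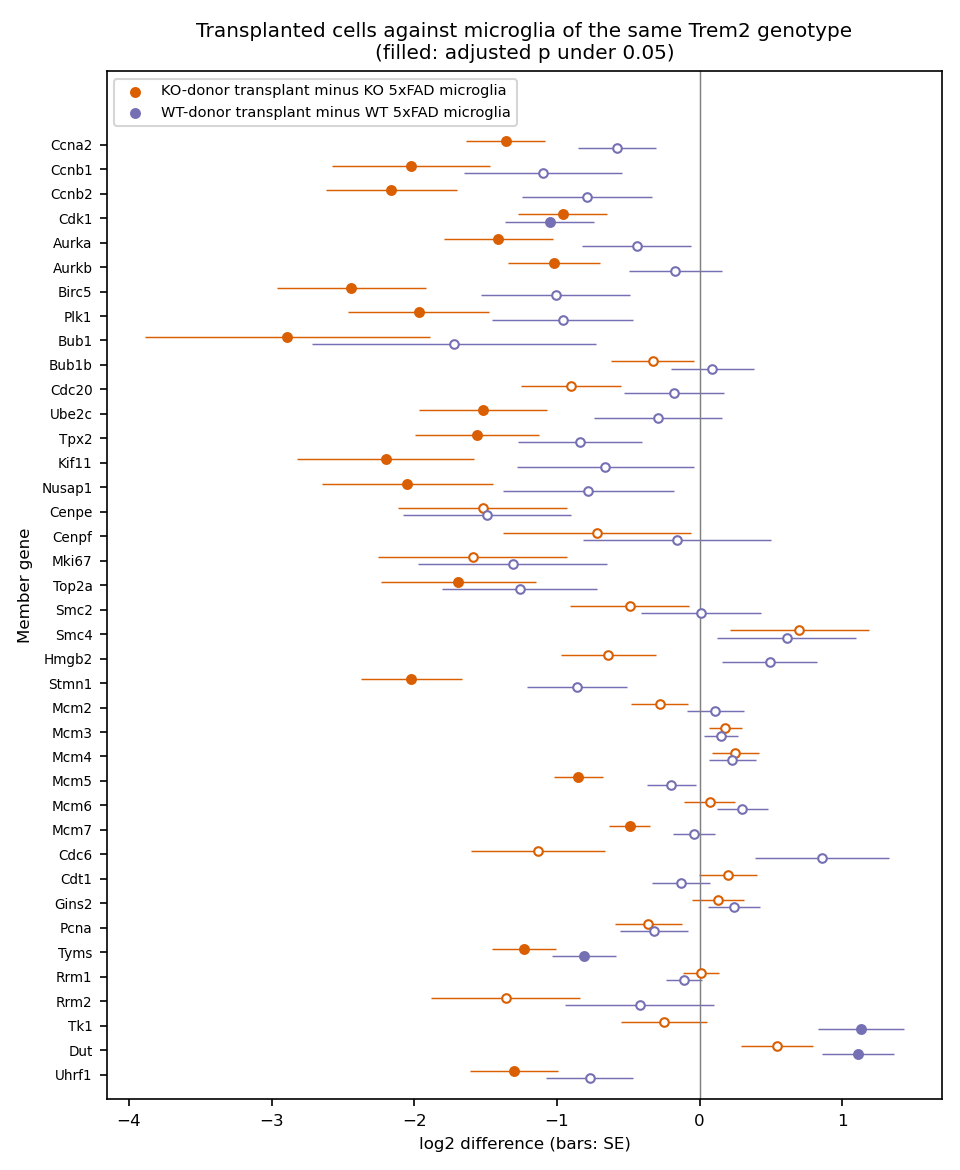
Log2 differences with standard errors for each member between KO-donor transplants and KO 5xFAD microglia (orange) and between WT-donor transplants and WT 5xFAD microglia (violet); filled points passed an adjusted p of 0.05. The orange points of the cyclins, kinases and spindle genes lie between -0.33 (Bub1b) and -2.89 (Bub1), those of the MCM subunits between -0.85 (Mcm5) and 0.25 (Mcm4), and the violet points of Dut and Tk1 lie at 1.11 and 1.13.

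The values by library follow, in roles. Libraries are listed as S32, S33, S34 and S35 for KO-donor transplants, S28, S29, S30 and S31 for WT-donor transplants, S25, S26 and S27 for KO 5xFAD microglia, S22, S23 and S24 for WT 5xFAD microglia and S20, S21 and S36 for normal microglia. All are normalized counts per gene, not corrected for length.

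Promoters of members whose results differ are shown first, as the stretch of 150 bases before the annotated start, from RefSeq on GRCm38.p6, 5′ to 3′ on the gene's strand. Capitals mark 3 motifs on either strand: the cell cycle homology region of mitotic genes (TTTGAA, or else with the letters TTCGAA), the CCAAT box, and an E2F-type site. The site is spelled TTCCCGC in one form, with another form written TTGGCGC and a further form written TTCGCGC, while the last of its forms is TTGCCGC. A run of over 7 capitals holds overlapping matches. Top2a, Cdk1 and Kif11 are mitotic genes, Mcm6 is a replication gene, and Dut is 1 of the 2 members, with Tk1, called higher in WT-donor transplants against WT 5xFAD microglia.
Top2a, chr11:99024190-99024339, minus strand: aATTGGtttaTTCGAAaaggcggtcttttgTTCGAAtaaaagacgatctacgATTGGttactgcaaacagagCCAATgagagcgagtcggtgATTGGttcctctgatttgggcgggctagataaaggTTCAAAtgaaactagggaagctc
Cdk1, chr10:69352913-69353062, minus strand: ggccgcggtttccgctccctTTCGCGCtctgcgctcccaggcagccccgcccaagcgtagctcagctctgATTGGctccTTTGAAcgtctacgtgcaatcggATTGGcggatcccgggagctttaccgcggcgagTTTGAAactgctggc
Kif11, chr19:37376232-37376381, plus strand: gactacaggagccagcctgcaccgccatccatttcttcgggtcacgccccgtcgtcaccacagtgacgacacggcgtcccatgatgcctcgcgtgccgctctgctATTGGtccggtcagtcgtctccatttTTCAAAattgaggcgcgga
Mcm6, chr1:128359706-128359855, minus strand: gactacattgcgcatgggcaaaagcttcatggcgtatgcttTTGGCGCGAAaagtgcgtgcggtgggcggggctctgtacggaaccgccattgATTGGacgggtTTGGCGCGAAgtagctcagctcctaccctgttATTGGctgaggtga
Dut, chr2:125247365-125247514, plus strand: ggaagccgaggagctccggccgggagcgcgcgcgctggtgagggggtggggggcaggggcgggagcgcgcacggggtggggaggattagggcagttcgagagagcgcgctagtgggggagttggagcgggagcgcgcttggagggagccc

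Promoter windows of 300 bases, 250 before and 50 after the start, were in the table for 32 of the members, as 34 windows. The cell cycle homology region was in 12 of 16 windows of mitotic members (75.0%), in 2 of 16 of replication members (12.5%), in 19.2% of all 32851 windows and in 13.8% of those of tested genes. Each of the 12 mitotic windows also held a CCAAT box, a pair found in 7.52% of all windows and 5.58% of those of tested genes. The E2F-type site was in 11 of 16 replication windows (68.8%) and 3 of 16 mitotic ones (18.8%), against 9.57% of all windows and 16.0% of those of tested genes. The CCAAT box alone was in 87.5% of mitotic, 68.8% of replication and 37.4% of all windows. The windows of Dut, Tk1, Tyms, Birc5 and Nusap1 held none of these letters. The Dut window lies inside the gene as GENCODE gives it, with a start at 125247190, and bases before that start were not searched. A match is a match of letters and was not tested as a binding site.

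Cyclins and Cdk1 came first among the roles. Ccna2, the cyclin that acts in DNA synthesis and early mitosis, had 145, 117, 148 and 135 in KO-donor transplants, 154, 108, 117 and 119.5 in WT-donor transplants, 532, 188 and 430.3 in KO 5xFAD microglia, 157, 185 and 219 in WT 5xFAD microglia, and 119, 102 and 120.1 in normal microglia. Ccnb1, the main mitotic cyclin, had 77.2, 32.7, 78.8 and 81.02 in KO-donor transplants, 82.8, 18.2, 70.97 and 102 in WT-donor transplants, 415, 91.9 and 457 in KO 5xFAD microglia, 124, 117 and 135 in WT 5xFAD microglia, and 87.4, 75.2 and 58.9 in normal microglia. Ccnb2, its close relative, had 53.1, 24.3, 37.3 and 54.9 in KO-donor transplants, 64.9, 30.7, 47.3 and 87.8 in WT-donor transplants, 289.9, 68.95 and 310.0 in KO 5xFAD microglia, 90.4, 97.2 and 93.8 in WT 5xFAD microglia, and 56.3, 50.4 and 70.2 in normal microglia. In all 3 genes S25 and S27 were the highest of the 17 libraries, and the transplants overlapped normal microglia. Cdk1, the kinase these cyclins activate, had 119, 146, 164 and 128 in KO-donor transplants, 148, 105, 117 and 165 in WT-donor transplants, 384, 123 and 409.7 in KO 5xFAD microglia, 275, 277 and 268 in WT 5xFAD microglia, and 114, 125 and 137 in normal microglia. All 3 WT 5xFAD libraries were above S26, above both transplant groups and above normal microglia in Cdk1.

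Ccna2 was the cyclin called in KO 5xFAD against normal microglia (log2 difference 1.62, SE 0.29, adjusted p = 0.00789), where Ccnb1, Ccnb2 and Cdk1 had log2 differences of 1.82, 1.64 and 1.10 with adjusted p of 0.0764, 0.0637 and 0.0668. All 4 fell in KO-donor transplants against KO 5xFAD microglia, with log2 differences of -1.36 for Ccna2, -2.02 for Ccnb1, -2.16 for Ccnb2 and -0.96 for Cdk1 (adjusted p 0.00112, 0.0115, 0.00171 and 0.0316). Without S25 and S27 the difference of Cdk1 in this comparison was 0.17, not called. Cdk1 also fell in WT-donor transplants against WT 5xFAD microglia (log2 difference -1.05, SE 0.31, adjusted p = 0.0172). In WT 5xFAD against normal microglia it had log2 difference 1.13, SE 0.34, adjusted p = 0.0743, which passed with only these groups in the fit (adjusted p = 0.00135). The exons of Ccna2 share 12.5% of their bases with Exosc9 on the opposite strand, and the library kit does not mark strand.

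Of the kinases, checkpoint genes and ubiquitin ligase partners, Birc5 (survivin, of the chromosomal passenger complex) had 32.8, 18.7, 27.7 and 68.7 in KO-donor transplants, 80.5, 32.98, 39.4 and 67.1 in WT-donor transplants, 292, 59.1 and 358 in KO 5xFAD microglia, 123, 88.9 and 105 in WT 5xFAD microglia, and 39.2, 51.4 and 44.2 in normal microglia. Plk1, the polo-like kinase of mitotic entry, had 82.04, 38.3, 12.8 and 50.1 in KO-donor transplants, 68.2, 42.1, 61.8 and 71.96 in WT-donor transplants, 177, 73.3 and 269.9 in KO 5xFAD microglia, 118, 121 and 114 in WT 5xFAD microglia, and 28.1, 53.3 and 44.2 in normal microglia. Aurkb, the kinase of the same passenger complex, had 80.1, 70, 63.9 and 112 in KO-donor transplants, 112, 39.8, 69.7 and 105 in WT-donor transplants, 183, 127 and 185 in KO 5xFAD microglia, 83.5, 85.9 and 85.95 in WT 5xFAD microglia, and 62.3, 78 and 48.7 in normal microglia. Birc5 and Plk1 in WT 5xFAD microglia were above all normal and all transplant libraries, whereas Aurkb in WT 5xFAD microglia overlapped the transplants. Aurka, the kinase of spindle poles, had 75.3, 46.7, 92.7 and 69.3 in KO-donor transplants, 77.2, 35.2, 70.97 and 87.8 in WT-donor transplants, 247, 91.9 and 279 in KO 5xFAD microglia, 113, 92.7 and 63.8 in WT 5xFAD microglia, and 77.4, 75.2 and 66.8 in normal microglia. Ube2c, the ubiquitin-conjugating enzyme of the anaphase-promoting complex, had 61.8, 46.7, 57.5 and 48.8 in KO-donor transplants, 65.98, 32.98, 77.5 and 60.98 in WT-donor transplants, 277, 51.4 and 261 in KO 5xFAD microglia, 56.01, 81.3 and 74.2 in WT 5xFAD microglia, and 43.2, 47.6 and 37.4 in normal microglia. Bub1b, the checkpoint protein BubR1, had 151, 177, 146 and 119 in KO-donor transplants, 171, 126, 145 and 156 in WT-donor transplants, 286, 97.4 and 224 in KO 5xFAD microglia, 158, 133 and 129.6 in WT 5xFAD microglia, and 102, 62.8 and 80.4 in normal microglia. S26 had Ube2c and Bub1b within or near the normal libraries, while for Aurkb all 3 KO libraries were above all others.

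Aurkb, Bub1b, Cdc20 and Ube2c rose in KO 5xFAD against normal microglia, by 1.38, 1.19, 1.38 and 1.84 on the log2 scale (adjusted p 0.0391, 0.0456, 0.0485 and 0.0436). Cdc20, the activator of the anaphase-promoting complex, ranged over 106 to 225 in KO-donor transplants, 127 to 221 in WT-donor transplants, 134 to 440.0 in KO 5xFAD microglia, 165 to 195 in WT 5xFAD microglia and 84.96 to 133 in normal microglia. In KO-donor transplants against KO 5xFAD microglia, Aurka, Aurkb, Birc5, Plk1, Bub1 and Ube2c fell, with the largest fitted fall in Bub1 (log2 difference -2.89, SE 1.00, adjusted p = 0.041) and the smallest p in Birc5 (log2 difference -2.44, SE 0.52, adjusted p = 0.00185). Bub1, the checkpoint kinase of kinetochores, was 0 in S35 and 8.4 to 34.8 in the other 3 KO-donor libraries, so its fitted value depends on the pseudocount. Ube2c had a difference of 0.05 in this comparison without S25 and S27. The exons of Ube2c share 22.8% of their bases with Tnnc2 on the opposite strand.

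The spindle, kinetochore and chromosome genes showed the widest spread. Top2a, the topoisomerase that untangles chromosomes, had 155, 133, 124 and 111 in KO-donor transplants, 172, 25.02, 101 and 95.1 in WT-donor transplants, 778, 141 and 668 in KO 5xFAD microglia, 198, 176 and 212 in WT 5xFAD microglia, and 88.4, 82.8 and 143 in normal microglia. Mki67, the coat protein of mitotic chromosomes that marks cycling cells, had 29.9, 45.7, 73.5 and 48.1 in KO-donor transplants, 31.3, 7.96, 43.4 and 32.9 in WT-donor transplants, 274, 44.9 and 235 in KO 5xFAD microglia, 62.9, 56.5 and 69.02 in WT 5xFAD microglia, and 20.1, 5.71 and 38.5 in normal microglia. Kif11, the motor that separates spindle poles, had 16.4, 20.5, 42.6 and 41.2 in KO-donor transplants, 46.97, 12.5, 78.9 and 34.1 in WT-donor transplants, 309, 49.2 and 147 in KO 5xFAD microglia, 56.99, 51.97 and 62.5 in WT 5xFAD microglia, and 9.04, 14.3 and 31.7 in normal microglia. In each of these, S25 and S27 stood above the 15 other libraries, S26 lay below the WT 5xFAD libraries, and S29 was lowest or near lowest. Cenpe, the kinetochore motor, had 17.4, 13.1, 37.3 and 26.1 in KO-donor transplants, 7.83, 3.41, 7.89 and 12.2 in WT-donor transplants, 115, 19.7 and 115 in KO 5xFAD microglia, 24.6, 27.9 and 15.6 in WT 5xFAD microglia, and 6.03, 10.5 and 10.2 in normal microglia. Nusap1, a microtubule-bundling protein, had 28.9, 52.3, 26.6 and 26.1 in KO-donor transplants, 59.3, 10.2, 19.7 and 21.9 in WT-donor transplants, 259, 38.3 and 250.4 in KO 5xFAD microglia, 48.1, 43.7 and 29.9 in WT 5xFAD microglia, and 28.1, 40.9 and 24.9 in normal microglia. Tpx2, a spindle assembly factor, had 68.5, 52.3, 67.1 and 46.7 in KO-donor transplants, 61.5, 25.02, 80.2 and 64.6 in WT-donor transplants, 309, 71.1 and 232 in KO 5xFAD microglia, 92.4, 105 and 91.2 in WT 5xFAD microglia, and 54.3, 75.2 and 47.6 in normal microglia. For Cenpe the KO-donor libraries were all above the WT-donor libraries by a small margin (13.1 against 12.2 at the nearest), and for Nusap1 and Tpx2 these groups overlapped.

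Kif11, Cenpe and Mki67 rose in KO 5xFAD against normal microglia, by 2.95, 2.76 and 3.02 on the log2 scale (SE 0.66, 0.63 and 0.71; adjusted p 0.0254, 0.0266 and 0.0298). Top2a had log2 difference 2.03, SE 0.58, adjusted p = 0.0563, just short of the threshold. None of the 7 was called there without S25 and S27. Tpx2, Kif11, Nusap1 and Top2a fell in KO-donor transplants against KO 5xFAD microglia, with log2 differences of -1.56, -2.20, -2.05 and -1.69. All 7, with Cenpf, a kinetochore protein, fell in WT-donor transplants against KO 5xFAD microglia, with Cenpe at log2 difference -2.99, SE 0.59, adjusted p = 0.000834. Cenpf ranged over 22.2 to 64.5 in KO-donor transplants, 4.55 to 30.2 in WT-donor transplants, 22.98 to 123 in KO 5xFAD microglia, 14.3 to 27.5 in WT 5xFAD microglia and 12.1 to 33.98 in normal microglia.

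**Figure D5:**
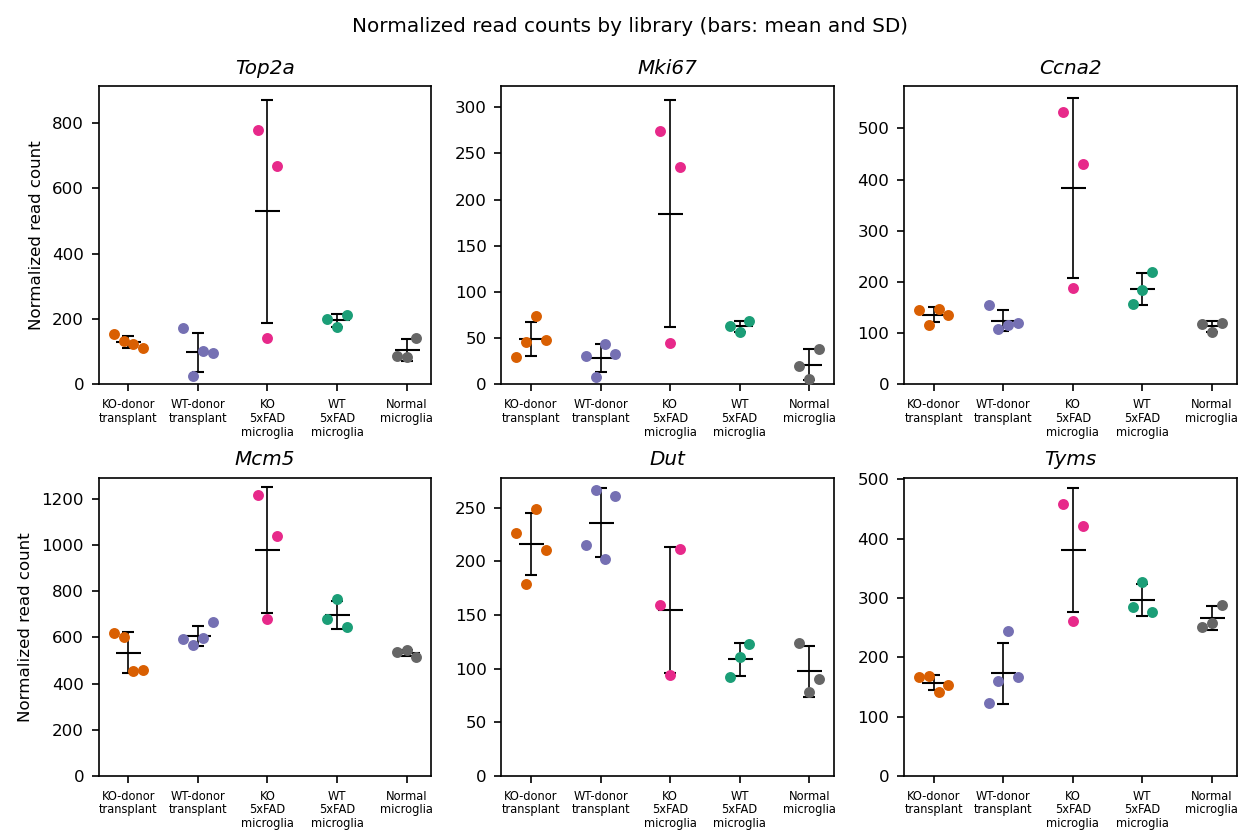
Normalized read counts of 6 members by library (points) and group, with the mean and SD as bars and axes from 0. For Top2a, Mki67, Ccna2 and Mcm5, S25 and S27 stand above all other libraries; Dut is highest in the transplants (179 to 266) and Tyms is lowest there (123 to 245).

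Among condensin, chromatin and tubulin genes, Hmgb2, a DNA-bending chromatin protein high in dividing cells, had 1013, 1048, 1399.7 and 859 in KO-donor transplants, 913, 889, 853 and 889 in WT-donor transplants, 2726, 635 and 2656 in KO 5xFAD microglia, 603, 609 and 678 in WT 5xFAD microglia, and 529.5, 529 and 539 in normal microglia. Stmn1, which frees tubulin from microtubules, had 402, 322, 362 and 389 in KO-donor transplants, 405, 331, 963 and 921 in WT-donor transplants, 2029, 741 and 2193 in KO 5xFAD microglia, 1081, 1164 and 959 in WT 5xFAD microglia, and 635, 645 and 684 in normal microglia. Smc2, a core condensin subunit, had 103, 151, 288 and 199 in KO-donor transplants, 138, 109, 105 and 105 in WT-donor transplants, 344, 99.6 and 417 in KO 5xFAD microglia, 94.3, 86.6 and 176 in WT 5xFAD microglia, and 61.3, 93.2 and 71.4 in normal microglia. For Hmgb2 the transplants lay above WT 5xFAD and normal microglia and, apart from S25 and S27, above S26, and for Stmn1 all KO-donor and 2 of the WT-donor libraries, S28 and S29, lay below every microglia library. S30 and S31, which had Stmn1 at 963 and 921, also had the highest oligodendrocyte marker sums, 23219 and 23476, against 4525 to 11086 in the other 15 libraries, and their part in Stmn1 was not tested.

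Hmgb2 rose in KO against WT 5xFAD microglia (log2 difference 1.40, SE 0.36, adjusted p = 0.029) and against normal microglia (log2 difference 1.64, SE 0.36, adjusted p = 0.0222), although S26 lay within the WT 5xFAD range. Without S25 and S27 its difference from WT 5xFAD microglia was 0.01 (adjusted p = 0.993). Stmn1 fell in KO-donor transplants against KO 5xFAD microglia (log2 difference -2.02, SE 0.35, adjusted p = 0.000319) and did not pass in KO-donor against WT-donor transplants (log2 difference -0.67, SE 0.33, adjusted p = 0.194). Smc4, the partner of Smc2, was 215 to 362 in KO-donor transplants, 114 to 242 in WT-donor transplants, 54.7 to 330.0 in KO 5xFAD microglia, 75.3 to 115 in WT 5xFAD microglia and 30.1 to 96.3 in normal microglia, and was not called in any comparison. Against S26 alone, KO-donor transplants had a log2 difference of 2.18 in Smc4 (SE 0.526, adjusted p = 0.00765).

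The MCM helicase subunits varied least. Mcm5 had 619, 603, 453 and 459 in KO-donor transplants, 592, 566, 598 and 665 in WT-donor transplants, 1216, 679.7 and 1039.5 in KO 5xFAD microglia, 681, 766 and 644 in WT 5xFAD microglia, and 535, 546 and 517 in normal microglia. Mcm7 had 626, 659, 519 and 612 in KO-donor transplants, 764, 622, 577 and 609.9 in WT-donor transplants, 959, 672 and 930.0 in KO 5xFAD microglia, 694, 665 and 617 in WT 5xFAD microglia, and 562, 529 and 615 in normal microglia. Both had S25 and S27 as the highest libraries and S26 within or near the WT 5xFAD libraries. They rose in KO 5xFAD against normal microglia, Mcm5 by 0.84 and Mcm7 by 0.57 on the log2 scale (adjusted p 0.0229 and 0.0485). Both fell in KO-donor transplants against KO 5xFAD microglia, with log2 differences of -0.85 and -0.49 (adjusted p 0.00122 and 0.0191).

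Mcm2, Mcm3, Mcm4 and Mcm6 were not called in any of the 8 comparisons. Mcm3, the subunit of the highest level, ranged over 1788 to 2667 in KO-donor transplants, 2109 to 2275 in WT-donor transplants, 1853 to 2068 in KO 5xFAD microglia, 1894 to 2050.4 in WT 5xFAD microglia and 1764 to 2067 in normal microglia. Mcm6 ranged over 1010.0 to 1192 in KO-donor transplants, 1026 to 1191 in WT-donor transplants, 681 to 1368 in KO 5xFAD microglia, 847 to 966 in WT 5xFAD microglia and 638 to 765 in normal microglia. All 8 transplant libraries were thus above all WT 5xFAD and normal libraries in Mcm6. Mcm4 had the same order, with 470 to 671 in KO-donor transplants, 458 to 567 in WT-donor transplants, 350.2 to 571 in KO 5xFAD microglia, 426 to 441 in WT 5xFAD microglia and 316 to 340 in normal microglia. Mcm2 overlapped between the groups, with 335 to 730 over all 17 libraries.

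Of the origin genes, Cdc6, which loads the helicase onto origins, had 60.8, 56, 42.6 and 29.5 in KO-donor transplants, 51.4, 36.4, 19.7 and 73.2 in WT-donor transplants, 125, 58.01 and 139.8 in KO 5xFAD microglia, 13.8, 26.4 and 28.6 in WT 5xFAD microglia, and 15.1, 12.4 and 29.4 in normal microglia. All 3 KO libraries were above all WT 5xFAD and normal libraries, S26 included. Cdc6 rose in KO against WT 5xFAD microglia (log2 difference 2.15, SE 0.50, adjusted p = 0.017) and against normal microglia (log2 difference 2.44, SE 0.50, adjusted p = 0.0174). Without S25 and S27 the difference from WT 5xFAD microglia was 1.37 (adjusted p = 0.487). Cdt1, the other loading factor, was not called, and its KO 5xFAD libraries (185 to 255) were all below the WT 5xFAD libraries (318 to 337). Gins2, of the active helicase, ranged over 199 to 333 in all libraries with no call, and 67.3% of its exon bases overlap Gse1 on the opposite strand.

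The fork and nucleotide genes went in different directions. Dut, which breaks down dUTP to keep uracil out of DNA, had 226, 179, 248 and 210.1 in KO-donor transplants, 215, 266, 202 and 261 in WT-donor transplants, 159, 94.1 and 211 in KO 5xFAD microglia, 92.4, 111 and 123 in WT 5xFAD microglia, and 124, 78 and 90.6 in normal microglia. Tk1, the thymidine kinase of the salvage pathway, had 142, 139, 127 and 141 in KO-donor transplants, 208, 116, 180.1 and 222 in WT-donor transplants, 191, 115 and 199 in KO 5xFAD microglia, 97.3, 77.6 and 67.7 in WT 5xFAD microglia, and 50.2, 129 and 78.2 in normal microglia. Tyms, which makes thymidylate from deoxyuridylate, had 167, 169, 141 and 153 in KO-donor transplants, 123, 159, 244 and 166 in WT-donor transplants, 459, 262 and 421 in KO 5xFAD microglia, 285, 327 and 277 in WT 5xFAD microglia, and 251, 258 and 289 in normal microglia. All transplant libraries were above all WT 5xFAD and normal libraries in Dut and below all microglia libraries in Tyms, while in Tk1 the libraries S34 (127) and S29 (116) lay below the highest normal library (129). These 3 enzymes act on the supply of thymidylate.

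Dut and Tk1 rose in WT-donor transplants against WT 5xFAD microglia (log2 difference 1.11, SE 0.25, adjusted p = 0.00269 for Dut and log2 difference 1.13, SE 0.30, adjusted p = 0.00906 for Tk1), and both calls held without any 1 library, though that of Tk1 was lost with the closest libraries averaged. Dut was also called higher in WT-donor transplants than in KO 5xFAD microglia (log2 difference 0.67, SE 0.25, adjusted p = 0.0466), but this call was lost on leaving out 6 of the 7 libraries, 1 at a time, and in 8 of 13 other settings, TMM and upper-quartile rescaling and edgeR among them. Its difference between KO-donor transplants and KO 5xFAD microglia was log2 difference 0.54, SE 0.25, adjusted p = 0.128, and against S26 alone 1.18 (adjusted p = 0.0123). Tyms fell in WT-donor transplants against WT 5xFAD microglia (log2 difference -0.81, SE 0.22, adjusted p = 0.0106, not called without S23), in KO-donor transplants against KO 5xFAD microglia (log2 difference -1.23, SE 0.22, adjusted p = 0.000431) and in WT-donor transplants against KO 5xFAD microglia (log2 difference -1.13, SE 0.22, adjusted p = 0.0008). The last 2 calls held without any 1 library but not without S25 and S27 together.

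Uhrf1, which reads half-methylated DNA and brings the methyltransferase Dnmt1 to new strands, had 137, 118, 57.5 and 122 in KO-donor transplants, 121, 81.9, 124 and 127 in WT-donor transplants, 332, 165 and 302 in KO 5xFAD microglia, 202, 235 and 147 in WT 5xFAD microglia, and 81.4, 77.05 and 88.3 in normal microglia. Rrm2, the regulated subunit of ribonucleotide reductase, had 149, 77.5, 56.5 and 148 in KO-donor transplants, 122, 25.02, 151 and 92.7 in WT-donor transplants, 351, 129 and 371 in KO 5xFAD microglia, 117, 108 and 102 in WT 5xFAD microglia, and 42.2, 80.9 and 43.04 in normal microglia. Uhrf1 in WT 5xFAD microglia was above all normal and all transplant libraries. Uhrf1 rose in WT 5xFAD (log2 difference 1.21, SE 0.33, adjusted p = 0.0466) and in KO 5xFAD (log2 difference 1.62, SE 0.33, adjusted p = 0.0154) against normal microglia. It fell in KO-donor transplants against KO 5xFAD microglia (log2 difference -1.30, SE 0.31, adjusted p = 0.00397). Rrm2 rose in KO 5xFAD against normal microglia (log2 difference 2.26, SE 0.56, adjusted p = 0.0371). Pcna, the sliding clamp, and Rrm1, the large reductase subunit, were not called, with Pcna at 564 to 1341 and Rrm1 at 757 to 1111 over all libraries. In Pcna the WT 5xFAD libraries (985 to 1115) were above the normal ones (604 to 789).

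Other genes of the pathway were described from 4 lists. Of 45 other mitosis genes, 14 rose in KO 5xFAD against normal microglia and 0 fell, against 2.70% and 1.21% of all tested genes, led by Racgap1, of the cytokinesis machinery (1.55, adjusted p = 0.00357). Without S25 and S27 the count was 0, with Racgap1 not called, and over the runs that left out 1 library it was 1 to 38. Without S26, 18.3% of all tested genes were called higher in KO 5xFAD against normal microglia. Shares for the other left-out libraries are not given, so the range of 1 to 38 describes the settings, not the mitosis genes. In KO-donor transplants against KO 5xFAD microglia 18 of these 45 genes fell and 0 rose, against 13.7% and 11.7% of all genes, led by Ncaph, a condensin subunit (-1.55, adjusted p = 2.76e-06). When S25 and S27 were left out, 1 of these 45 genes fell and 1 rose, and Ncaph was still called. Ncaph was 155 to 219 in KO-donor transplants, 129 to 185 in WT-donor transplants, 442 to 549 in KO 5xFAD microglia, 342 to 415 in WT 5xFAD microglia and 464 to 512 in normal microglia. Both transplant groups were thus below every microglia library in Ncaph, S26 included, unlike Smc2 and Smc4. Of 44 other replication genes, 3 rose in KO 5xFAD against normal microglia (Prim1, Chek1 and Asf1b), and none of these calls held without S25 alone or without S27 alone. Dnmt1, the maintenance methyltransferase, rose in WT-donor transplants against WT 5xFAD microglia (0.71, adjusted p = 0.00158) and in KO-donor transplants against KO 5xFAD microglia (0.77, adjusted p = 0.000943), where Uhrf1, its partner, had log2 differences of -0.77 and -1.30. The second call of Dnmt1 was lost without S25 and S27.

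Of 26 genes of the G1 phase, 3 rose and 5 fell in WT-donor transplants against WT 5xFAD microglia, shares near those of all tested genes (13.6% higher and 14.6% lower). Ccnd2, a D-type cyclin that activates Cdk4 and Cdk6, had 549, 355, 401 and 526 in KO-donor transplants, 510.0, 506, 481 and 343 in WT-donor transplants, 189, 172 and 148 in KO 5xFAD microglia, 129, 110.0 and 98.97 in WT 5xFAD microglia, and 154, 148 and 128 in normal microglia. Every transplant library was above every microglia library, and the log2 difference was 2.01 against WT 5xFAD microglia (adjusted p = 3.59e-07) for WT-donor and 1.41 against KO 5xFAD microglia (adjusted p = 2.98e-05) for KO-donor transplants. Cdk6 fell by 1.19 in the KO-donor comparison (adjusted p = 2.61e-05). Myc, a growth-promoting transcription factor, rose in WT 5xFAD against normal microglia (0.91, adjusted p = 0.0106) and fell in KO against WT 5xFAD microglia (log2 difference -0.98, SE 0.20, adjusted p = 0.00551, not called without S25 and S27), with 629, 576 and 681 in KO libraries and 1146, 1314 and 1259 in WT libraries. Ccne2, the cyclin E2 of S-phase entry, rose in KO-donor against WT-donor transplants (log2 difference 1.61, SE 0.42, adjusted p = 0.0325), with 46.3, 48.5, 49 and 36.4 in KO-donor and 19.01, 14.8, 7.89 and 17.1 in WT-donor libraries, which did not overlap. This call of Ccne2 was lost without any 1 of S30, S31, S32, S33 and S34. The exons of Ccne2 share 17.4% of their bases with Ints8 on the opposite strand. In the difference of differences E2f2 and Ccnd1 were lower and Myc and Rbl2 higher, the 4 genes of this list that were called, and none was called without S25 and S27.

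Of 17 tested inhibitors of cyclin-dependent kinases and arrest genes, 3 rose in WT 5xFAD against normal microglia and 0 fell, against 2.83% and 0.952% of all tested genes. Leaving out 1 library gave 1 to 2 that rose, with no share of all genes given for those runs. Cdkn1a, the inhibitor p21, was 696, 578 and 823 in WT 5xFAD and 319.5, 317 and 274 in normal microglia (log2 difference 1.19, SE 0.29, adjusted p = 0.0266). Btg2 and Gadd45b rose as well, by 0.84 and 1.55. Leaving out 1 library always ended the call of Gadd45b, ended that of Cdkn1a except without S23, and never ended that of Btg2. Btg2 and Gadd45b were lower in KO than in WT 5xFAD microglia, Btg2 with log2 difference -0.59, SE 0.15, adjusted p = 0.0302 and Gadd45b with log2 difference -1.49, SE 0.42, adjusted p = 0.0483. Neither was called without S25 and S27. This call of Btg2 was lost in 8 of 18 settings, among them without S22, S23, S24, S25 or S27. That of Gadd45b was lost in 12 of 18, among them without any 1 library of these groups. Gadd45g, a stress-induced growth arrest gene, was 759, 862, 695 and 617 in KO-donor and 979, 2263, 1489 and 1525 in WT-donor transplants, without overlap (log2 difference -1.04, SE 0.19, adjusted p = 0.00846). In WT-donor transplants against WT 5xFAD microglia it rose (log2 difference 1.36, SE 0.21, adjusted p = 7.56e-05), while Cdkn1a, Btg2 and Ccng2 fell.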

How the data were processed

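The authors deposited 1 table of normalized read counts (a signal per gene and library). The submitters' processing notes list STAR (2.5.2b), RSEM, HTSeq, bcl2fastq and DESeq2, the last with version 3.17, and the builds mm10 and GRCm38.p6. For HTSeq and RSEM no role is stated, nor are the annotation or the treatment of reads that align to several places, so genes with close copies (Hmgb2, Stmn1, Dut) are uncertain in that respect. The kit was SMART-Seq v4, per the labels' protocols, and it does not mark strand. Within a tolerance of 0.02, 100% of the deposited signal values were whole multiples of a step specific to the library, as for reads divided by a size factor. In S20 the step was near 1 (1.00482).

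Values were taken as log2(value + 1), so the fold of a low gene is understated. The filter asked for 10 or more in at least 3 libraries and left 12074 genes, removing 1427. A limma model (3.58.1, R 4.3.3; lmFit, contrasts, eBayes with trend) had a mean for each of the 5 groups and took in all 17 libraries; 8 two-sided contrasts were adjusted by Benjamini-Hochberg over all tested genes, with a call at an adjusted p under 0.05. The fits were tested on simulated data. Alternatives were other pseudocounts, filters and scalings, library weights, fits on the compared groups only, each library left out, edgeR 4.0.16 and DESeq2 1.42.0 on the recovered reads, and, added after the values were seen, fits without S25 and S27, without S29 and with the closest libraries averaged. Libraries are named by their column numbers. Outside the normal group the columns carry a group and no replicate number. Positions and exon lengths are from GENCODE vM21 (GRCm38), promoters from RefSeq (GRCm38.p6).

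The members and the gene lists were chosen with earlier results of these data known. Every member is accounted for. Values by library are given for called members, at most the 6 of smallest p per role, and for up to 4 called genes of a pathway list per comparison. Genes named for not overlapping, for their values without S25 and S27 or for their level were named after their values were seen.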

Additional observations from a re-analysis of the deposited data

Results flagged for a closer look

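In the groups of 4 libraries, the highest or lowest library of each member was set against the other 3, for 78 pairs of member and group. In 5 pairs the gap to the nearest library was more than 0.829 of the whole range, and chance gives about 1 in 20. Ccnb1 was 32.67 in S33, against 77.21 to 81.02 in the other KO-donor transplants. Nusap1 was 52.27 in the same library, against 26.09 to 28.95. Smc4 was 362.17 in S34, against 215.23 to 226.81 in the other KO-donor transplants. Smc2 was 137.56 in S28, against 104.89 to 109.17 in the other WT-donor transplants. Uhrf1 was 81.87 in S29, against 120.78 to 126.85 in the other WT-donor transplants. The 5 of 78 pairs are near the 1 in 20 that chance gives, so no trait of a library or gene is read from them. S33 was apart downward in Ccnb1 and upward in Nusap1.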

How the results depend on the processing

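Over 1276 alternative values of single called members, 916 kept their direction and their call, 355 lost the call and 5 reversed. The 5 were all without S25 and S27: Cdk1 at 0.17 and Ube2c at 0.05 in KO-donor transplants against KO 5xFAD microglia, and Cdk1 at 0.10, Hmgb2 at 0.48 and Ube2c at 0.14 in WT-donor transplants against KO 5xFAD microglia, with the remaining KO library assumed to vary like the other groups. Of 67 calls of members, 17 held without any 1 library. Of 158 alternative counts of called members, 100 stayed within 1.5 times the main count. Other pseudocounts, the stricter filter and both rescalings kept all 8 counts within that range.

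For WT 5xFAD against normal microglia the count was 1, with 0 without the filter, 14 with only the compared groups, 17 with array weights, 2 by DESeq2, 0 with the closest libraries averaged and 0 without each library in turn. For KO 5xFAD against normal microglia it was 15, with 8 without the filter, 0 with only the compared groups, 36 with array weights, 24 by edgeR, 31 by DESeq2, 0 with the closest libraries averaged, 0 without S25 and S27 and 0 to 34 leaving out 1 library. For KO against WT 5xFAD microglia it was 2, with 0 with only the compared groups, 33 with array weights, 10 by DESeq2, 0 with the closest libraries averaged, 0 without S25 and S27 and 0 to 28 leaving out 1 library. For KO-donor against WT-donor transplants it was 0, with 1 under array weights.

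For WT-donor transplants against WT 5xFAD microglia it was 4, with 8 with only the compared groups, 14 with array weights, 2 with the closest libraries averaged and 2 to 5 leaving out 1 library. For KO-donor transplants against KO 5xFAD microglia it was 19, with 12 with only the compared groups, 31 with array weights, 7 with the closest libraries averaged, 5 without S25 and S27 and 8 to 28 leaving out 1 library. For WT-donor transplants against KO 5xFAD microglia it was 26, with 12 with only the compared groups, 2 without S25 and S27, 16 without S29, 5 with the closest libraries averaged and 8 to 29 leaving out 1 library. For the difference of differences it was 0, with 26 under array weights, 4 by DESeq2, 1 without S29 and 0 to 14 leaving out 1 library. Array weights lower the weight of libraries far from their group mean, and averaging leaves fewer samples. The share of all tested genes called higher also moved with the setting. It went from 2.83% to 8.16% for WT 5xFAD against normal microglia with only the compared groups. Without S26 it went from 2.70% to 18.3% for KO 5xFAD against normal microglia and from 2.50% to 13.3% for KO against WT 5xFAD microglia. The counts above are given without that share and describe the settings, not the members. The causes were otherwise not tested.

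No paired analysis was possible because the columns outside the normal group carry no replicate number. With 3 or 4 libraries per group and a wide spread in KO 5xFAD microglia, small differences of the spindle genes were not detectable.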
